A study of Homo sapiens with 5 samples.

Results

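The genes described here make cholesterol and fatty acids. They are 38 genes chosen by symbol: the enzymes from acetyl-CoA to cholesterol, the sensors that control them, and the enzymes that build, desaturate, elongate and activate fatty acids. The list was drawn up with earlier results of these data known. All 38 were found in the deposited expression table, which held 22889 named genes, and all 38 passed the floor of 1 FPKM (fragments per kilobase of transcript, scaled to library size) in either RNA library. The series asked what LSD1, a histone lysine demethylase encoded by KDM1A, does in androgen signalling in human prostate cancer cells. LNCaP is an androgen-responsive line from a lymph node metastasis, and VCaP is a line from a bone metastasis with high androgen receptor levels. The 5 samples were LNCaP transfected with an siRNA against LSD1 (RNA-seq), LNCaP transfected with a control siRNA (RNA-seq), and 3 chromatin immunoprecipitation (ChIP-seq) samples of cells that were not transfected. These targeted LSD1 in LNCaP, H3T6ph (the phosphorylated threonine 6 of histone H3) in LNCaP, and LSD1 in VCaP. All were labelled passage 14 to 17 and had been kept for 3 days in hormone-depleted medium before a hormone stimulus that the labels do not name.

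With 1 sample in each group there is no replicate error and no test between conditions, and fold changes are described by size alone. KDM1A itself was at 6.87 FPKM with LSD1 siRNA and 37.0 FPKM with control siRNA, 18.6% of control. Low values in the table put the depth of the LSD1 siRNA library at about 77.5% of the control library. All 8 luminal prostate markers were at 1 FPKM or more, with a summed level of 3596 FPKM with LSD1 siRNA and 4620 FPKM with control siRNA. The basal markers KRT5 and TP63, the fibroblast markers COL1A2 and DCN, the immune markers PTPRC and CD3E, the endothelial marker CDH5, the adipocyte marker LEP and the hepatocyte marker ALB were under 0.1 FPKM in both. Markers of other cell types at 1 FPKM or more were COL1A1, CD68, VWF and TTR, each higher with LSD1 siRNA, at 11.7, 16.2, 2.38 and 3.52 FPKM with LSD1 siRNA and 8.77, 11.0, 1.89 and 2.68 FPKM with control siRNA. Summed levels with LSD1 siRNA and control siRNA were 0.925 and 0.634 FPKM for 4 basal, 11.9 and 8.91 for 4 fibroblast, 2.51 and 1.99 for 3 endothelial, 1.17 and 0.895 for 3 adipocyte and 4.07 and 3.13 for 3 hepatocyte markers. The luminal sum was lower with LSD1 siRNA, as were most of the genes below, and its part in their differences was not tested. Among the luminal markers KRT19 alone was higher, at 4.70 FPKM with LSD1 siRNA and 2.39 FPKM with control siRNA. VCaP has no RNA library here.

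As background, cholesterol is built from acetyl-CoA through mevalonate, squalene and lanosterol, and fatty acids from acetyl-CoA through malonyl-CoA. Most of these genes are induced by the SREBP transcription factors, which SCAP escorts out of the endoplasmic reticulum when sterols are scarce and INSIG proteins hold back when sterols are plentiful. In prostate cancer cells androgen is known to raise the activity of this system, and lipid synthesis is a known feature of the tumours.

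The promoters shown first belong to genes picked by a peak over the start, a fold change or a motif. PMVK, CYP51A1 and SCAP had a ChIP peak over the gene start. HMGCS1, ACACA, ELOVL7 and ACSL3 had the largest fold change in their step of the pathway, and SREBF2 is shown for its sterol regulatory element. A single window per gene is shown, and where a gene has several it is the one with the most NF-Y boxes. Other windows of HMGCS1 and ACACA hold fewer boxes, and the ACACA window shown lies downstream of others of that gene. The letters are the gene-sense bases just before the gene start of that window, from RefSeq on GRCh38.p14. There are 250 for the genes with a peak over the start and 170 for the others. Capitals mark the NF-Y box CCAAT or its complement ATTGG, the sterol regulatory element TCACNCCAC and the E-box CACGTG. The PMVK, CYP51A1 and ELOVL7 letters hold none of them.
PMVK, chr1:154936720-154936969, minus strand: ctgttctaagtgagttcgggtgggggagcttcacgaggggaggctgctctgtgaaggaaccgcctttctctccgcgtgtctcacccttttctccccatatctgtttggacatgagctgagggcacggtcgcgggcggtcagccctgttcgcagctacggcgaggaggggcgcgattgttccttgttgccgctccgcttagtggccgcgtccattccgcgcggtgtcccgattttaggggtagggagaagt
CYP51A1, chr7:92134478-92134727, minus strand: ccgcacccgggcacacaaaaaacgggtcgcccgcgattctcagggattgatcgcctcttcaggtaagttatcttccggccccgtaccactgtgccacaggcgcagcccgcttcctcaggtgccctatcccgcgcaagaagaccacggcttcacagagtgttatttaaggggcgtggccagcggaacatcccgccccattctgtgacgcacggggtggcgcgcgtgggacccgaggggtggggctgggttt
SCAP, chr3:47475942-47476191, minus strand: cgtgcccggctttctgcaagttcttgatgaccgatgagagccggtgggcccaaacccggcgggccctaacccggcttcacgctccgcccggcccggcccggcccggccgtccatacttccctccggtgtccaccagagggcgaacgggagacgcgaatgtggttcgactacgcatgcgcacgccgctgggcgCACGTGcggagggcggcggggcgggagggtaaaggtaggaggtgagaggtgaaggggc
HMGCS1, chr5:43313413-43313582, minus strand: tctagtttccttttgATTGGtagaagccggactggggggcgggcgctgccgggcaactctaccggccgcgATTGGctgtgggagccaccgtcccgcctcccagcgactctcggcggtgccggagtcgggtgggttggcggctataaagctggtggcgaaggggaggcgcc
ACACA, chr17:37299768-37299937, minus strand: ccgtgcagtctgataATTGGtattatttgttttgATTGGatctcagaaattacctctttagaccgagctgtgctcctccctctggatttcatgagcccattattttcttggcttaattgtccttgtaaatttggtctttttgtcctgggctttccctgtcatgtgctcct
ELOVL7, chr5:60844270-60844439, minus strand: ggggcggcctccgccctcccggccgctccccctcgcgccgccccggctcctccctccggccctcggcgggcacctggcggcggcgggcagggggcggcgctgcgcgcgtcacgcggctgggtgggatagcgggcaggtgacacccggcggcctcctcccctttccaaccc
ACSL3, chr2:222860866-222861035, plus strand: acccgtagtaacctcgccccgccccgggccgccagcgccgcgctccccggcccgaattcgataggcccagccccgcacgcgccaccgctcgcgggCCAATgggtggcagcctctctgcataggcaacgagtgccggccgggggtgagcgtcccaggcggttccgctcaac
SREBF2, chr22:41832935-41833104, plus strand: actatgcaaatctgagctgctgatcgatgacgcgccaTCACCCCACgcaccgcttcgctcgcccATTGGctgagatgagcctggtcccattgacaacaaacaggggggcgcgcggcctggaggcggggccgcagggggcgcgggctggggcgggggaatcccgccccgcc

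The RefSeq table held 49 promoter windows for 34 of the 38 genes, and ACAT2, FASN, FDFT1 and SQLE were not among them. NF-Y is a factor known to bind beside SREBP at many sterol genes. Its box, the letters CCAAT on either strand in the 250 bases before a start, stood in a window of 25 of the 34 genes (73.5%), against 40.2% of 15843 protein-coding genes. At least 2 boxes in a window were found for 16 of the 34 (47.1%), against 13.7%. MVK and NSDHL had 5 each in a window, MSMO1 and TECR 4 each, and EBP, FDPS, IDI1 and MVD 3 each. The Sp1 box GGGCGG was present for 32 of the 34 (94.1%), against 62.1%. The strict sterol regulatory element was rarer, with matches for SREBF2 and ACSL1 alone among the 34 (5.88%), against 1.19%. In SREBF2 it lies upstream of an NF-Y box, both visible in the letters above. The E-box stood before SC5D, INSIG1, SCAP and ELOVL5 (11.8%, against 9.73%). The androgen response half-site AGAACA was found before PMVK and ACSL1 (5.88%, against 12.7%). These are letters and not bound sites, and the boxes of 1 motif may overlap those of another. The 15843 genes were not limited to those at 1 FPKM or more, while all 34 were, so the shares compare unlike sets. How far expression enters the gaps was not tested. The median log2 fold change was -0.09 for the 25 genes with an NF-Y box and -0.05 for the 9 without.

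**Figure D1:**
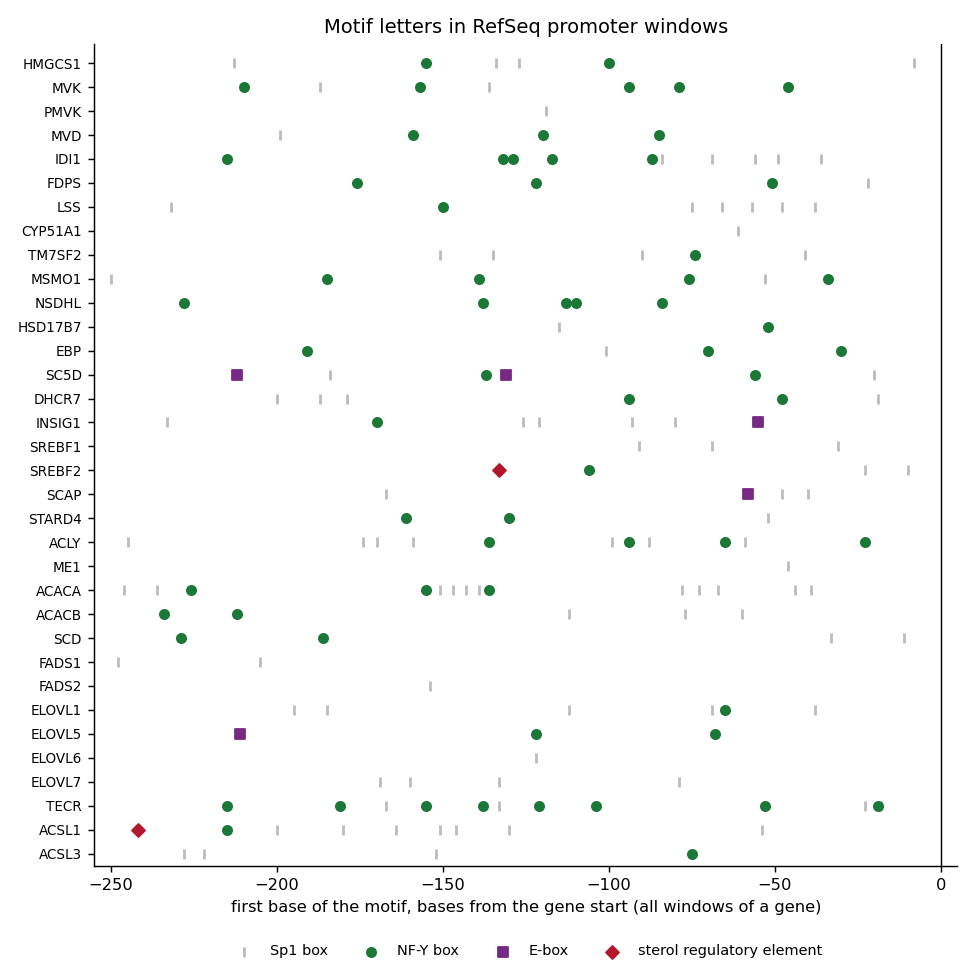
Motif letters in the 250 bases before the start of 34 lipid synthesis genes, with the distance from the gene start in bases on the x axis and 1 gene per row in pathway order. Green circles are NF-Y boxes, grey ticks Sp1 boxes, purple squares E-boxes and red diamonds sterol regulatory elements; all windows of a gene share its row, so a site can appear at more than 1 distance where starts lie close together. NF-Y boxes are dense in the sterol rows, and the 2 red diamonds are those of SREBF2 and ACSL1.

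These were well expressed genes. Their median level was 34.8 FPKM with LSD1 siRNA and 37.9 FPKM with control siRNA, against 12.9 and 13.2 FPKM over 11753 protein-coding genes in the same libraries. In each library 32 of the 38 lay above the median protein-coding gene. SCD, the desaturase that makes oleate, was the highest in both, at 279 FPKM with LSD1 siRNA and 285 FPKM with control siRNA. ELOVL5 and FADS2, an elongase and a desaturase of polyunsaturated fatty acids, came next. ACACB, the mitochondria-associated acetyl-CoA carboxylase, was the lowest, at 2.41 FPKM with LSD1 siRNA and 1.96 FPKM with control siRNA. With 1 library a group it cannot be said which neighbours in this order differ.

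After LSD1 siRNA, 26 of the 38 genes were at a lower level and 12 at a higher one. Their median log2 fold change, on the log2(FPKM + 1) scale, was -0.10. Over all 12916 genes that passed the floor the median was -0.01 and 52.6% were lower. Past a fixed size of 1.5-fold there was 1 lower gene, ELOVL7, where 2.41% of all genes and 1.18% of protein-coding genes were lower by as much. ELOVL7 no longer passed with values centred on the median protein-coding gene or with a pseudocount of 5 FPKM, and by the highest transcript of each gene ACACA passed in its place. None of the 38 was higher by 1.5-fold, where 1.91% of all genes and 1.04% of protein-coding genes were. None was past 2-fold, where 1.13% of all genes were lower and 0.844% higher, and 0.128% and 0.111% of protein-coding genes. At 1.3-fold, a size chosen after the values were seen, 10 of the 38 were lower and 0 higher. The 38 genes were also listed with earlier results of these data known, so the shares that follow describe and do not test. At that size 5.72% of all genes were lower and 4.63% higher. Among protein-coding genes 4.53% were lower and 3.77% higher, and among those at 5 FPKM or more 4.67% were lower and 3.1% higher. The 10 were HMGCS1, IDI1, FDFT1, SQLE, MSMO1, ACACA, FASN, ELOVL6, ELOVL7 and ACSL3. SQLE, at -0.38, lay just inside that size, which it no longer passed with centring (-0.37) or a pseudocount of 5 FPKM (-0.30), and ELOVL6 missed it with that pseudocount (-0.37). Just outside it were TECR, at 0.32, and NSDHL, at -0.27. The authors' deposited table calls none of the 72 accessions of these genes changed, and its lowest q among them is 0.377, for ELOVL7. Its unadjusted p is under 0.05 for 5 of the 64 accessions of these genes that it tests, those of ELOVL7, FDFT1, ACACA, MSMO1 and IDI1, and for 6.35% of all tested accessions.

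**Figure D2:**
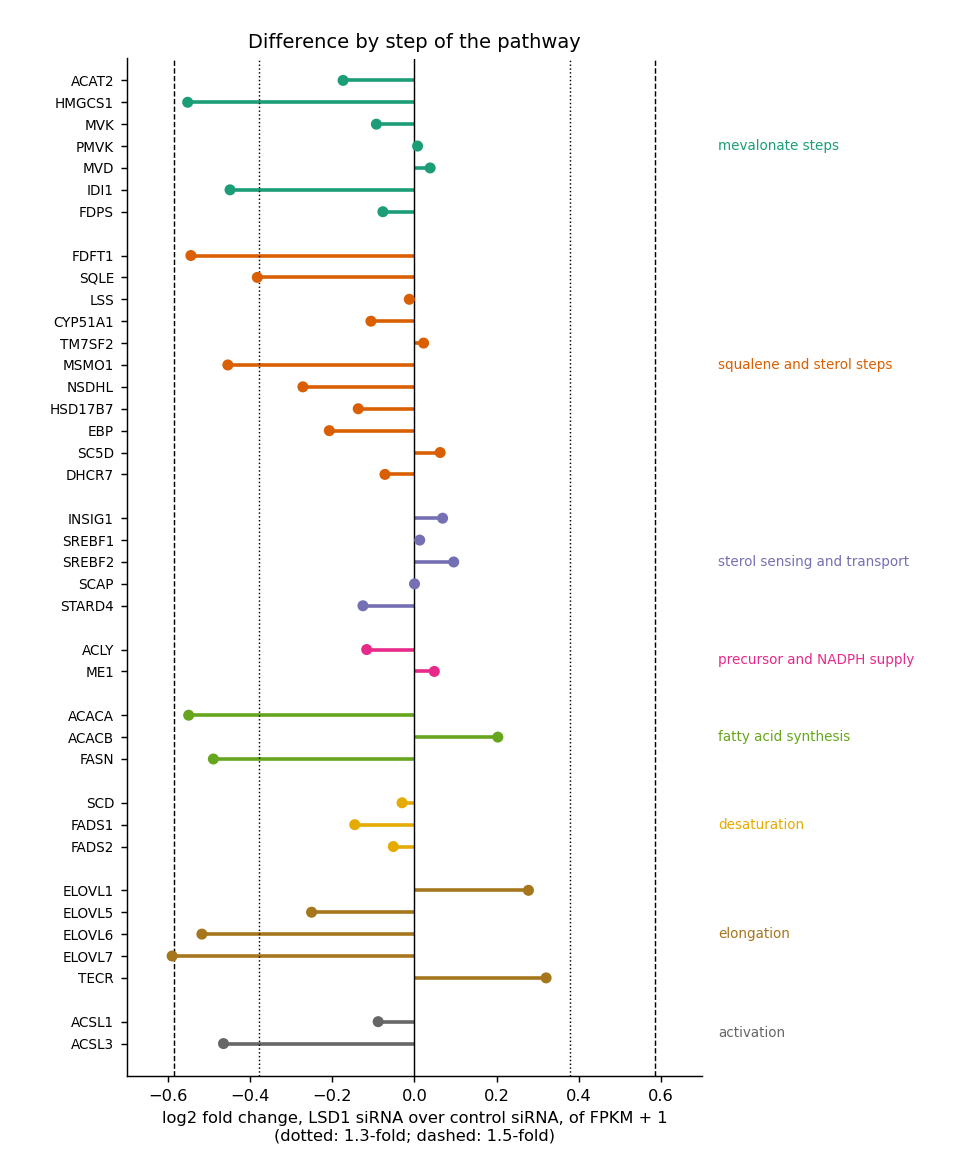
Log2 fold change of FPKM + 1, LSD1 siRNA over control siRNA, on the x axis for each of the 38 genes, grouped by pathway step; each point is 1 pair of libraries, with no error bar because each group held 1 library. Dotted lines mark 1.3-fold and dashed lines 1.5-fold. ELOVL7 alone passes the left dashed line, 10 genes pass the left dotted line, and none passes a line on the right.

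The mevalonate steps were uneven. HMGCS1, the synthase that joins acetoacetyl-CoA and acetyl-CoA (chromosome 5, 43287572 to 43313614, hg19), was at 21.2 FPKM with LSD1 siRNA and 31.6 FPKM with control siRNA, a log2 fold change of -0.55. Both of its transcripts were lower, at 9.75 and 11.5 FPKM with LSD1 siRNA and 16.3 and 15.3 FPKM with control siRNA. IDI1, which isomerises isopentenyl diphosphate, was at 31.1 FPKM with LSD1 siRNA and 42.8 FPKM with control siRNA (-0.45). So the entry enzyme and the isomerase were at 67.2% and 72.6% of control. The kinases and the decarboxylase between them were close to equal in the 2 libraries. The mevalonate kinase gene MVK was at 7.61 FPKM with LSD1 siRNA and 8.18 FPKM with control siRNA (-0.09). The phosphomevalonate kinase gene PMVK was at 30.9 FPKM with LSD1 siRNA and 30.7 FPKM with control siRNA (0.01). The decarboxylase gene MVD was at 12.9 FPKM with LSD1 siRNA and 12.5 FPKM with control siRNA (0.04). FDPS, the farnesyl diphosphate synthase gene, was at 57.9 FPKM with LSD1 siRNA and 61.1 FPKM with control siRNA (-0.08). By its highest transcript alone, NM_001135822, FDPS was at 31.0 FPKM with LSD1 siRNA and 37.8 FPKM with control siRNA (-0.28). ACAT2, the cytosolic thiolase that makes acetoacetyl-CoA, was at 19.6 FPKM with LSD1 siRNA and 22.2 FPKM with control siRNA (-0.17). ACAT2 shares its table interval with TCP1, and the RNA kit does not mark strand, so reads where the genes overlap cannot be told apart. FDPS, HSD17B7 and SCD have near-identical pseudogene copies, and how the authors placed such reads is not given in the sources used here.

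The first committed sterol steps were lower and most later ones were nearly level. FDFT1, squalene synthase, was at 116 FPKM with LSD1 siRNA and 169 FPKM with control siRNA (-0.54), the largest difference of the sterol branch after HMGCS1. SQLE, the squalene epoxidase and a rate-limiting enzyme, was at 11.7 FPKM with LSD1 siRNA and 15.5 FPKM with control siRNA (-0.38). MSMO1, the methylsterol oxidase, was at 27.9 FPKM with LSD1 siRNA and 38.6 FPKM with control siRNA (-0.45). These 3 were the members of this branch past 1.3-fold. NSDHL, which works in the same demethylation step as MSMO1, was at 13.7 FPKM with LSD1 siRNA and 16.7 FPKM with control siRNA (-0.27). HSD17B7, its ketoreductase partner, was at 9.77 FPKM with LSD1 siRNA and 10.8 FPKM with control siRNA (-0.14). The sterol isomerase gene EBP was at 29.6 FPKM with LSD1 siRNA and 34.3 FPKM with control siRNA (-0.21). The other 5 genes of the branch lay within 0.11 of 0 on the log2 scale. They are the lanosterol synthase gene LSS (-0.01), the lanosterol demethylase gene CYP51A1 (-0.11), the sterol reductase genes TM7SF2 (0.02) and DHCR7 (-0.07), and the sterol desaturase gene SC5D (0.06). In all 9 of these 11 genes had a lower value, with a median of -0.14.

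Level gene sums hid unequal transcripts in 3 of these genes. For CYP51A1 the transcript NM_001146152 was at 2.88 FPKM with LSD1 siRNA and 10.0 FPKM with control siRNA, while NM_000786 was at 30.7 FPKM with LSD1 siRNA and 26.2 FPKM with control siRNA. The minor transcript thus made up 8.58% of the gene with LSD1 siRNA and 27.7% with control siRNA. The minor transcript of DHCR7 was at 2.97 FPKM with LSD1 siRNA and 7.90 FPKM with control siRNA, and that of SC5D at 1.83 FPKM with LSD1 siRNA and 4.43 FPKM with control siRNA. The authors' deposited table gives p-values of 0.822, 0.858 and 0.867 for these minor transcripts of CYP51A1, DHCR7 and SC5D. When each gene was read from its highest transcript alone, CYP51A1 had a log2 fold change of 0.22 and DHCR7 of 0.13, the opposite sign from their sums, while SC5D was at 0.18 and LSS at -0.11.

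The 5 sterol sensing and transport genes among the members were within 0.13 of 0 on the log2 scale. SREBF2, which encodes the SREBP that chiefly drives sterol genes, was at 52.1 FPKM with LSD1 siRNA and 48.7 FPKM with control siRNA (0.10). SREBF1, whose products chiefly drive fatty acid genes, was at 82.6 FPKM with LSD1 siRNA and 81.9 FPKM with control siRNA (0.01), and at -0.08 by its highest transcript. The escort gene SCAP was at 41.3 FPKM in both (0.00). The retention factor gene INSIG1, itself a known SREBP target, was at 39.1 FPKM with LSD1 siRNA and 37.2 FPKM with control siRNA (0.07), and at 0.13 by its highest transcript. The sterol carrier gene STARD4 was at 9.28 FPKM with LSD1 siRNA and 10.2 FPKM with control siRNA (-0.13). None of the 5 came near 1.3-fold, and 4 of the 5 had a higher value with LSD1 siRNA. Sterol regulation genes outside the members differed more. INSIG2 was at 67.1 FPKM with LSD1 siRNA and 54.2 FPKM with control siRNA (0.30), and MBTPS2 was at -0.29. RNA levels do not show how much SREBP was processed to its active form.

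In fatty acid synthesis the carboxylase and the synthase were lower while their neighbours were close to level. ACACA, the cytosolic acetyl-CoA carboxylase that makes malonyl-CoA (chromosome 17, 35441927 to 35766902, hg19), was at 55.9 FPKM with LSD1 siRNA and 82.2 FPKM with control siRNA (-0.55). Of its 5 transcripts NM_198836 carried the difference, at 43.8 FPKM with LSD1 siRNA and 69.8 FPKM with control siRNA. Its other 4 transcripts were at 0.899 to 3.92 FPKM with LSD1 siRNA and 0.859 to 4.57 FPKM with control siRNA. FASN, the fatty acid synthase gene, was at 129 FPKM with LSD1 siRNA and 181 FPKM with control siRNA (-0.49). ACACB differed the other way (0.20, and 0.0900 with a pseudocount of 5 FPKM), at its low level. ACLY, which supplies cytosolic acetyl-CoA, was at 167 FPKM with LSD1 siRNA and 181 FPKM with control siRNA (-0.12). ME1, a source of NADPH, was at 19.2 FPKM with LSD1 siRNA and 18.5 FPKM with control siRNA (0.05). Of the desaturases, SCD was at -0.03 and FADS2 at -0.05, with 198 FPKM with LSD1 siRNA and 205 FPKM with control siRNA for FADS2. FADS1, another polyunsaturated fatty acid desaturase, was at 30.2 FPKM with LSD1 siRNA and 33.5 FPKM with control siRNA (-0.15). All 3 desaturases were slightly lower, and none approached 1.3-fold.

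The elongation genes split in both directions. ELOVL7, an elongase of long saturated chains reported as androgen-regulated in prostate cancer (chromosome 5, 60047616 to 60140101, hg19), was at 17.8 FPKM with LSD1 siRNA and 27.3 FPKM with control siRNA (-0.59). That is 65.2% of control, the largest difference of the 38 genes. ELOVL6, which elongates palmitate, was at 7.82 FPKM with LSD1 siRNA and 11.6 FPKM with control siRNA (-0.52). Both transcripts of ELOVL7 and both of ELOVL6 were lower. ELOVL5 was at 208 FPKM with LSD1 siRNA and 247 FPKM with control siRNA (-0.25). In the other direction, ELOVL1, an elongase of very long chains, was at 83.5 FPKM with LSD1 siRNA and 68.7 FPKM with control siRNA (0.28). TECR, the reductase that completes each elongation cycle, was at 90.7 FPKM with LSD1 siRNA and 72.5 FPKM with control siRNA (0.32). ELOVL1 and TECR were the members with the largest higher values. Of the acyl-CoA synthetases that activate fatty acids, ACSL3, which acts in lipid droplet formation and is a known androgen-induced gene, was at 111 FPKM with LSD1 siRNA and 154 FPKM with control siRNA (-0.46). Its 2 transcripts kept their shares, with the minor one at 43.8% with LSD1 siRNA and 43.7% with control siRNA. ACSL1 was at 77.5 FPKM with LSD1 siRNA and 82.4 FPKM with control siRNA (-0.09).

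**Figure D3:**
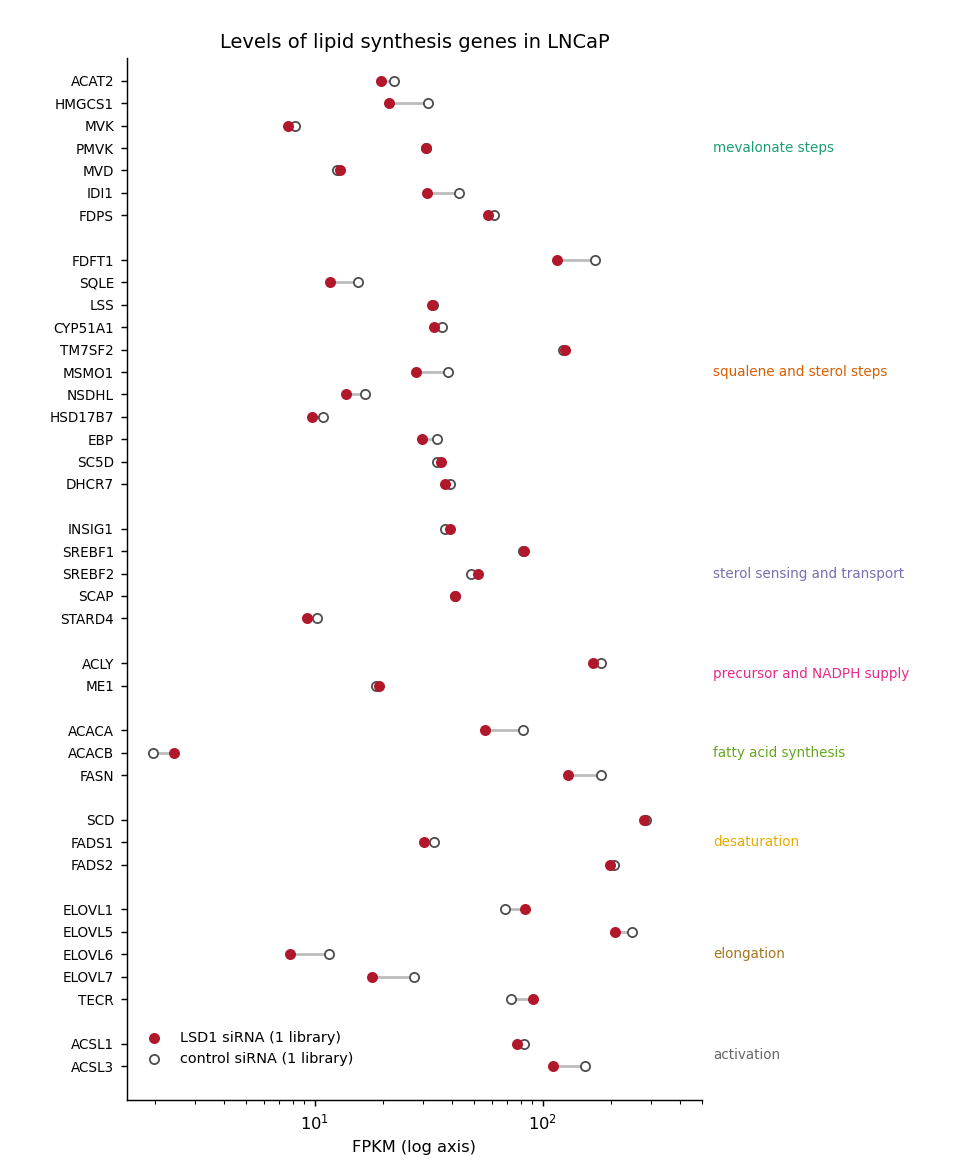
FPKM on a log axis for each of the 38 genes in LNCaP with LSD1 siRNA (filled red) and control siRNA (open), 1 library each, grouped by pathway step. The widest gaps are those of HMGCS1, FDFT1, ACACA, ELOVL6 and ELOVL7, and SCAP, PMVK and SREBF1 have nearly coincident points.

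**Figure D4:**
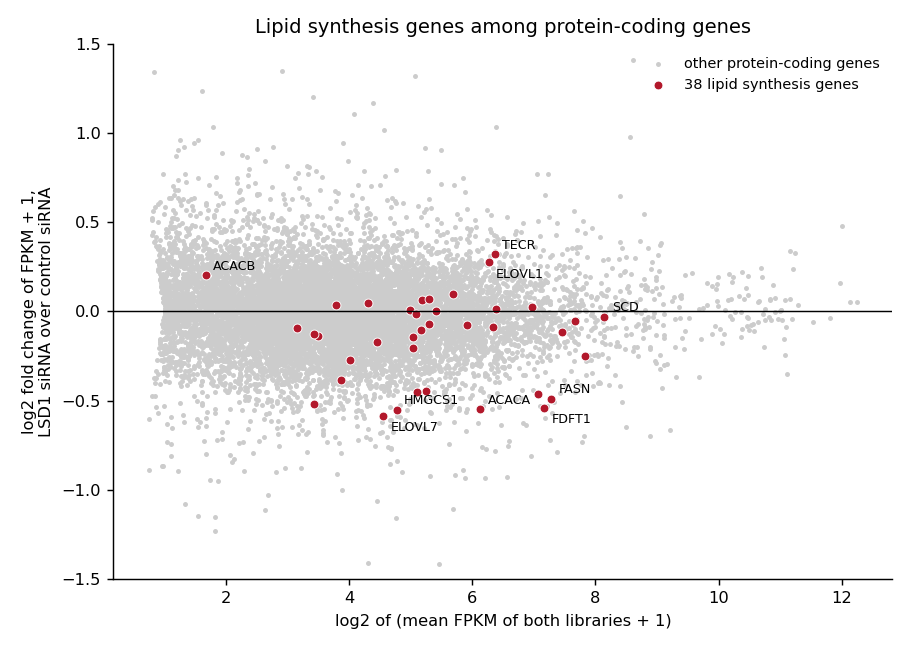
Log2 fold change of FPKM + 1, LSD1 siRNA over control siRNA, against log2 of the mean FPKM + 1 for 11753 protein-coding genes (grey) and the 38 lipid synthesis genes (red); 5 genes lie outside the plotted range. The lower red points sit at moderate to high expression, and all 38 stay within the range of other genes.

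Other genes of lipid metabolism gave a mixed picture. Of 26 further synthesis and sterol regulation genes, 20 passed the floor, with 13 lower, 7 higher and a median of -0.05. The sterol reductase and lamin B receptor gene LBR was at 9.48 FPKM with LSD1 siRNA and 12.9 FPKM with control siRNA (-0.41). Genes of triglyceride and phospholipid assembly had a median of 0.02 over 13 genes, with none past 1.3-fold. The largest differences there were in AGPAT2 (0.29) and LPIN2 (0.25), which act between lysophosphatidate and diacylglycerol. Of LXR, LXR target and cholesterol export genes 7 passed, with 3 lower, 4 higher and a median of 0.20. The higher 4 were NPC1 (0.40) and NPC2 (0.28), which move cholesterol out of lysosomes, and the LXR receptor genes NR1H3 (0.23) and NR1H2 (0.20). The lower 3, at -0.10 to -0.05, were the LXR targets ABCG1, MYLIP and LPCAT3. NPC1 was at 31.6 FPKM with LSD1 siRNA and 23.7 FPKM with control siRNA. Genes of fatty acid oxidation, the opposite process to synthesis, had a median of 0.00 over 16 genes, with 8 lower and 8 higher. HADHB, a subunit of the mitochondrial trifunctional protein, stood apart in that list at 59.8 FPKM with LSD1 siRNA and 85.2 FPKM with control siRNA (-0.50), and ETFDH was at -0.30.

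LSD1 and H3T6ph peaks were then read at the same genes. A peak counted when it lay within 20 kb of the gene's interval in hg19, and 61 peaks did so. For LSD1 in LNCaP 19 of the 38 genes had one (50%, 95% Wilson interval 34.8 to 65.2%), against 41.2% of all genes and 42.2% of protein-coding genes. For H3T6ph in LNCaP 8 had one (21.1%, 11.1 to 36.3%), against 17.8% of all genes and 18% of protein-coding genes. For LSD1 in VCaP 15 had one (39.5%, 25.6 to 55.3%), against 41.2% of all genes and 41.9% of protein-coding genes. These intervals cover counting error only and treat the 38 chosen genes as independent draws. Each list came from 1 ChIP sample, and no test against the shares of other genes was made. The intervals of these genes had a median length of 29.8 kb, against 33.0 kb for protein-coding genes. The table's interval takes in another protein-coding gene for ACAT2, IDI1, FDPS, SREBF1, STARD4 and ACACA, so that a peak there may lie in the neighbour. That of STARD4 spans 518982 bases and includes NREP, and that of SREBF1 includes RAI1. FADS1 and FADS2 lie side by side and share 1 VCaP LSD1 peak.

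Peaks over the gene start were read only for genes with an interval of their own and a known strand. This leaves out ACAT2, IDI1, FDPS, SREBF1, STARD4, ACACA, FDFT1, SQLE and FASN. Among the rest such peaks were found at CYP51A1, SCAP and PMVK, and no share of all genes was taken for comparison. LSD1 covered the start of CYP51A1 in both lines, at 91763694 to 91764498 in LNCaP and 91763024 to 91764643 in VCaP (chromosome 7, hg19), and the 2 peaks overlap. Their scores from the authors, 61.1 and 56.5, lay at percentiles 36.7 and 35.9 of their lists. In LNCaP, LSD1 also covered the start of SCAP (chromosome 3, 47517217 to 47517795, score 77.2), and a further LSD1 peak lay inside SCAP at 47484402 to 47485791 (score 97.9). An H3T6ph peak covered the start of PMVK (chromosome 1, 154908835 to 154909680, score 66.2). The LSD1 peak at INSIG1 (chromosome 7, 155090259 to 155091218, score 93.1) had its centre 1.25 kb into the gene. The letters before the starts of CYP51A1, SCAP and PMVK are shown above. They come from GRCh38.p14, and no peak was placed on them. None of CYP51A1, SCAP, PMVK and INSIG1 was past 1.3-fold after LSD1 siRNA.

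The peaks are given next by pathway step, with no test between steps. SREBF2, SCAP and INSIG1 had an LNCaP LSD1 peak within 20 kb and no VCaP LSD1 or H3T6ph peak. The same holds for the intervals of SREBF1 and STARD4, but these take in RAI1 and NREP, so their peaks may lie in the neighbour. In all 12 of the 38 genes (31.6%) had an LNCaP LSD1 peak and no other, against 16.6% of all genes and 17% of protein-coding genes. The peak with the highest LNCaP LSD1 score near these genes was inside SREBF2 (chromosome 22, 42298869 to 42299651), 70.2 kb from its start. Its score of 177 lay at percentile 98.6 of the list. Of the 18 enzymes from ACAT2 to DHCR7, an LNCaP LSD1 peak lay near FDPS, FDFT1, CYP51A1 and SC5D. A VCaP LSD1 peak lay near HMGCS1, PMVK, SQLE, LSS, CYP51A1, TM7SF2 and NSDHL. H3T6ph peaks lay near HMGCS1, MVK, PMVK, FDPS and DHCR7. Most of those at genes whose start could be placed lay far from it, and FDPS, FDFT1 and SQLE could not be placed. Distances into a gene are given to the peak centre, and those before it to the nearer peak edge. The H3T6ph peak of MVK lay 5.07 kb before the gene, that of HMGCS1 7.13 kb into it, and that of DHCR7 15.2 kb from the start, past the end of the gene. The VCaP LSD1 peaks of TM7SF2 and NSDHL lay 14.4 and 10.5 kb before the gene, and that of LSS 39.1 kb from the start. TM7SF2 had the highest-ranked score of these, 116, at percentile 95.2 of its list. No peak of any list was near 8 genes (21.1%), namely ACAT2, MVD, IDI1, MSMO1, HSD17B7, EBP, ELOVL1 and ELOVL6. The share of all genes without a peak was not taken, so it cannot be said whether that is many or few.

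**Figure D5:**
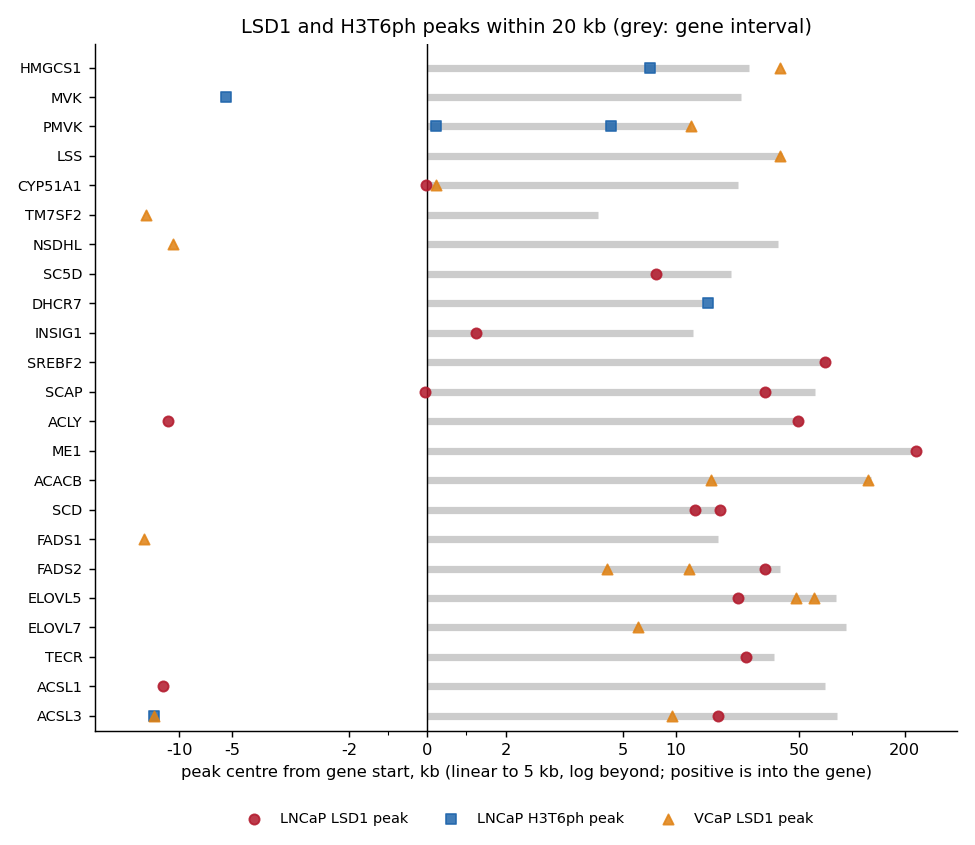
Centres of peaks within 20 kb of 23 lipid synthesis genes, as distance in kb from the gene start (linear to 5 kb, log beyond, positive into the gene), with LNCaP LSD1 as red circles, LNCaP H3T6ph as blue squares, VCaP LSD1 as orange triangles and gene intervals in grey. Genes whose interval takes in a neighbour, or with no strand in the RefSeq table, are left out. CYP51A1, SCAP and PMVK have a peak at the start, and most other peaks lie inside or beyond the gene.

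Fatty acid genes held most of the other peaks. In LNCaP, LSD1 lay 11.1 kb before ACLY and 12.0 kb before ACSL1, and SCD held 2 LSD1 peaks, 12.8 and 17.9 kb from its start. ELOVL5 had an LNCaP LSD1 peak 22.5 kb into the gene, and its 2 VCaP LSD1 peaks lay further in, the nearer at 48.0 kb. FADS2 likewise had peaks of both lines that did not overlap, at 32.1 kb in LNCaP and at 4.61 and 12.0 kb in VCaP. TECR had an LNCaP LSD1 peak inside the gene, ME1 one past its far end, and ACACB 2 of VCaP LSD1, the nearer at 15.8 kb. None of ACLY, ACSL1, SCD, ELOVL5, FADS2, TECR, ME1 and ACACB was past 1.3-fold.

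All 3 lists met at ACACA, FASN and ACSL3, which are among the 10 genes past 1.3-fold. These are 3 of the 38 genes (7.89%), near the 7.26% of all genes and 7.3% of protein-coding genes with peaks of all 3 lists. The interval of ACACA spans 324976 bases and takes in C17orf78. ACACA held 3 LNCaP LSD1, 2 H3T6ph and 6 VCaP LSD1 peaks inside its interval. An LNCaP LSD1 peak (35630962 to 35631850) overlapped an H3T6ph peak (35631275 to 35631758) there. Another H3T6ph peak (35672546 to 35672969, score 121) overlapped VCaP LSD1 alone. The FASN peaks lay outside the gene (chromosome 17, 80036214 to 80056106). H3T6ph had one 16.4 kb away on the low-coordinate side (80019235 to 80019806, score 175) and one 15.5 kb away on the other (80071603 to 80072463, score 164). Both H3T6ph scores were above percentile 96.7 of that list. The one at 80071603 overlapped VCaP LSD1 (80071708 to 80072497), and the LNCaP LSD1 peak (80067956 to 80068575, score 57.8) overlapped neither. At ACSL3 an H3T6ph peak 13.7 kb before the gene (223711608 to 223712021 on chromosome 2) overlapped VCaP LSD1. Its LNCaP LSD1 peak, 17.3 kb into the gene, had a score of 50.8 at percentile 3.01 of the list. At ELOVL7 there was 1 peak, of VCaP LSD1, 6.08 kb into the gene, and none of either LNCaP list.

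Peaks and RNA differences were set side by side without a test. Over the 19 genes with an LNCaP LSD1 peak the median log2 difference was -0.08, and over the 19 without it was -0.15. Of the 10 genes past 1.3-fold, 4 had such a peak, namely FDFT1, ACACA, FASN and ACSL3. For H3T6ph the median was -0.28 over the 8 genes with a peak and -0.10 over the 30 without, with ranges of -0.55 to 0.01 and -0.59 to 0.32. For VCaP LSD1 it was -0.25 over 15 genes with a peak and -0.08 over 23 without, although the RNA is from LNCaP. The ranges overlap for all 3 lists.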

How the data were processed

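RNA-seq and ChIP-seq samples were grouped by the labels' transfection and title fields. Per the submitters' processing notes, Bowtie2 2.0.0, TopHat2 2.0.4, Cuffdiff 2.0.1, MACS2 and build hg19 were used, and the library kits were TruSeq RNA v2 and ThruPLEX-FD, per the labels' protocols. The authors deposited expression as FPKM for each RefSeq accession in each library, beside a p-value and a q-value of their own. Each ChIP sample has 1 peak list with a score per peak given by the authors, whose scale is not stated in the deposited files. Scores served to describe and rank peaks of the same list. ChIP depth is unknown. For the control track, duplicate handling and annotation version, nothing was stated in the sources used here.

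Symbols came from the RefSeq table of GRCh38.p14, which matched 38934 of 40253 accessions (96.7%) and gave names and strands only. FPKM was summed over the accessions of a symbol, and genes with a failed estimate were left out. Genes entered at 1 FPKM or more in either library. Fold changes are LSD1 siRNA over control siRNA on the log2(FPKM + 1) scale, which understates the change of low genes. Relative depth is the most frequent ratio of values under 0.5 FPKM, 1.29, in 2021 accessions alone in their interval. Fragments behind each gene were not derived, so no counting interval is given for a level. Peaks counted within 20 kb of the gene interval, and motifs were searched on both strands. Python 3.11.15 with pandas 2.3.3, numpy 2.4.6 and scipy 1.17.1 was used, and the calculations were tested on simulated data. Genes were named by rule: all members, KDM1A, and in each further list the 2 largest differences at 5 FPKM or more. INSIG2, MBTPS2 and the other LXR and cholesterol export genes past the floor were named besides. Promoters were printed for members with a peak over the start, for those with the largest difference in their step if past 1.3-fold, and for SREBF2, chosen after its letters were seen. Some genes of the marker and further lists are not reported here. The members and lists were chosen with earlier results of these data known.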

Additional observations from a re-analysis of the deposited data

How the results depend on the processing

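The direction of the median held under all 7 alternatives tried for expression. It was -0.11 with a pseudocount of 0.1 FPKM or a floor of 5 FPKM, -0.0876 with a pseudocount of 5 FPKM and -0.0873 with values centred on the median protein-coding gene. The 1 gene lower by 1.5-fold, ELOVL7, became 0 with a pseudocount of 5 FPKM, with centring, and at 2-fold, and 10 genes passed at 1.3-fold, a size added after the data were seen. With the highest transcript of each gene ACACA passed 1.5-fold in place of ELOVL7, and CYP51A1, DHCR7 and SREBF1 had the other sign. The 10 genes at 1.3-fold became 8 with a pseudocount of 5 FPKM and 9 with centring. Members with an LNCaP LSD1 peak numbered 10 when only peaks at or above the list's median score counted, and 9 of 34 when distance was taken from the gene start. Members with an H3T6ph peak numbered 4 within 5 kb, 5 by that score limit and 5 from the gene start, and those with a VCaP LSD1 peak 9 from the gene start. Under the same settings the shares of protein-coding genes were 23.7% and 24.7% for LNCaP LSD1, 13%, 9.7% and 8.57% for H3T6ph and 27.5% for VCaP LSD1. No paired analysis was possible because each group held 1 sample. Read depth per gene is unknown, so how far counting error reaches the smaller differences was not tested.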
